A study of Mus musculus with 5 samples.

Results

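The comparison described here sets all 3 Malt1 mutant libraries of the series against both of its wild-type (WT) libraries, which together are the 5 libraries deposited. Total RNA of sorted CD4+YFP+ regulatory T (Treg) cells was sequenced, a CD4 lineage defined by the factor Foxp3 that holds immune responses in check. The mice were C57BL/6, and all mice, WT included, carried a Foxp3-driven Cre recombinase with a yellow fluorescent protein, so that Cre acts in Foxp3-expressing cells. WT was 1 library at 21 days and 1 at 6 weeks of age. The mutants were 1 library of Foxp3Cre-YFP malt1fl/fl mice at 21 days, in which the labels say Malt1 is deleted in Treg cells (KO), and 2 libraries of Foxp3Cre-YFP malt1fl/C472A mice at 6 weeks (KI). KI mice have the C472A substitution on 1 Malt1 allele, opposite a floxed one, and the labels describe the protease activity as inhibited in Treg cells. Ages and mutant alleles were pooled, so the mutant group mixes a deletion at the younger age with a substitution at the older age.

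MALT1 is a paracaspase, a scaffold protein that is also a protease. After the T cell receptor is engaged it joins BCL10 in a complex that activates the NF-kB transcription factors, and it cleaves regulators of the same pathway and of mRNA stability, such as A20, CYLD, RELB, Regnase-1 and Roquin. In Treg cells NF-kB signalling is known for its part in the development and the effector state of the cells.

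The values are FPKM, fragments per kilobase of transcript and per mapped fragments of the library, divided by 1 scaling factor per library (scaled FPKM). Of 38130 rows in the files, 12678 had a deposited FPKM of 1 or more in at least 1 library and were compared. A gene is described as higher or lower where each of the 3 mutant libraries lay on the same side of both WT libraries in scaled FPKM, and this is called no overlap. It held for 927 rows higher in the mutants (7.31% of those compared) and 945 rows lower (7.45%). Values of 2 WT libraries are given with 21 days first, and those of KI with replicate 1 first. Differences are mutant minus WT means of log2(scaled FPKM + 1), so those of low genes are understated. Whether each library is a separate animal is not given in the labels, so the p-values cover spread between samples that may be of technical origin. In bulk samples, fewer cells of a type and less RNA per cell cannot be told apart.

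The defining genes of the sorted cell type were present in all 5 libraries. Foxp3 had 70.7 and 39.5 scaled FPKM in WT, 30.5 in KO and 70.1 and 73.6 in KI. Cd4 ranged from 137 to 213 and Cd3e, part of the T cell receptor complex, from 150 to 253. The precision of the libraries differed. For genes at 5 to 20 scaled FPKM, the median relative standard error implied by the deposited bounds was 4.86% in the 21-day WT library and 5.33 and 4.91% in the KI libraries, but 8.52% in the 6-week WT library and 8.07% in KO. The libraries of lower precision, 1 of each genotype class and each age, are called the lower-precision set below, and the other 3 the higher-precision set. The reason for this split is not given in the labels.

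Malt1 itself (ENSMUSG00000032688) did not separate mutant from WT libraries. It had 27.0 and 15.2 scaled FPKM in WT, 17.6 in KO and 55.9 and 37.8 in KI. The library labelled KO lay between the WT libraries and both KI libraries lay above them, so the groups overlapped. The mutant mean was 37.1 ± 19.1 (SD, n = 3) against 21.1 ± 8.30 (SD, n = 2) in WT. This difference of 0.70 (SE 0.499) had an unadjusted p of 0.209 in limma. A value summed over a gene need not show the loss of some of its exons, and the files give no exon values. Of the other 5 compared genes of the Malt1 complex list none separated either. Bcl10, the adaptor that binds MALT1, had 43.9 and 34.9 in WT, 28.1 in KO and 52.7 and 33.5 in KI. Prkcq, the kinase that triggers assembly of the complex in T cells, lay between 72.3 and 81.7 in all 5 libraries.

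No row passed the test across all rows. The limma fit of 3 against 2 libraries, with Benjamini-Hochberg adjustment over 12678 rows and a threshold of 0.05, called 0 rows (0%), and the lowest adjusted p was 0.295. At an unadjusted p below 0.05 there were 340 rows, 161 higher and 179 lower in the mutants. The gene groups below are therefore described by their values and counts, and no gene is said to have changed. Each count of a list is to be read beside the shares over all rows, 7.31% higher and 7.45% lower. Among the rows without overlap, the median difference was 0.45 in size for the higher ones and 0.44 for the lower ones. The nearest mutant and the nearest WT library were at least 1.5-fold apart in 49 of the higher and 61 of the lower rows, and at least 2-fold apart in 15 and 17, with 1 added to each value. The median difference of all rows was -0.01, with quartiles of -0.18 and 0.18.

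**Figure D1:**
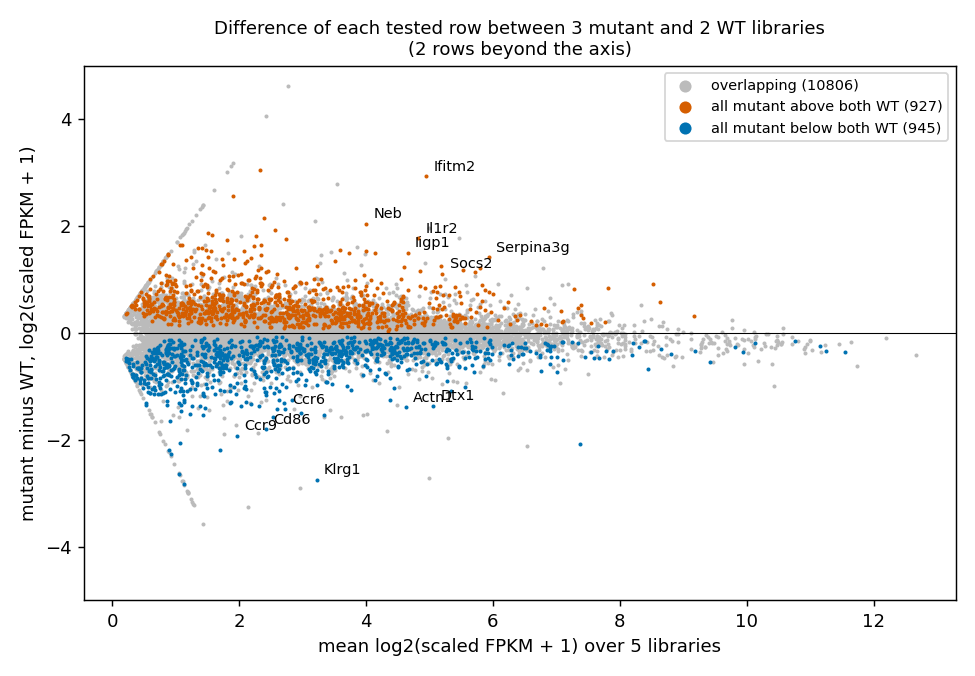
Each point is 1 of the 12678 rows compared. The x axis is the mean log2(scaled FPKM + 1) of the 5 libraries and the y axis the mutant mean minus the WT mean on that scale. Orange points mark the 927 rows in which all 3 mutant libraries lay above both WT libraries, blue points the 945 rows in which they lay below, and grey points the 10806 rows that overlap. Most orange and blue points lie close to the zero line, and grey points lie as far from it as the named genes do.

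The widest gap above WT, among protein-coding genes that also did not overlap in the deposited FPKM, was that of Il1r2 (ENSMUSG00000026073, chr1:40084768-40125219, plus strand, GRCm38), the decoy receptor that binds interleukin 1 without signalling. It had 13.6 and 11.4 scaled FPKM in WT, 40.5 in KO and 50.5 and 45.1 in KI. Each mutant library was thus far above both WT libraries, and the deposited bounds did not overlap either. The mean of 45.4 ± 5.03 (SD, n = 3) was 3.62-fold that of WT, 12.5 ± 1.56 (SD, n = 2). This difference of 1.78 (SE 0.212) had the lowest p of any protein-coding gene, 0.000109, and missed the threshold after adjustment in limma (adjusted p = 0.460). In the list of interleukin 1 family receptors 2 of 10 genes were higher, Il1r2 and Il18rap, and 0 lower.

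Iigp1, an interferon-induced GTPase that acts on vacuoles of intracellular pathogens, was similarly even among the mutants. It had 11.7 and 13.4 in WT, 39.5 in KO and 32.5 and 40.4 in KI, a difference of 1.51 (SE 0.212, adjusted p = 0.601 in limma). Serpina3g, an inhibitor of cathepsins in lymphocytes, had 41.3 and 26.2 in WT against 88.2 in KO and 87.7 and 93.3 in KI. Its neighbour Serpina3f had 2.14 and 1.08 in WT against 6.78, 5.43 and 5.18, and the copies of this family can share reads. Socs2, a feedback inhibitor of cytokine receptors, had 20.3 and 24.3 in WT, 46.2 in KO and 55.9 and 45.9 in KI. In each of these the KO value lay inside or close to the range of the KI pair.

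Other genes were above WT in all mutants but by unequal amounts. Ifitm2 (chr7:140954839-140955961, minus strand), which codes for a membrane protein that restricts virus entry, had 8.69 and 7.52 scaled FPKM in WT, 230 in KO and 54.8 and 25.03 in KI. KO was far above the KI libraries, and the difference of 2.94 had an SE of 0.837. Ifitm3 and Ifitm1, of the same family and picked after their values were seen, were likewise highest in KO but overlapped. Ifitm3 had 1.91 and 10.6 in WT, 66.0 in KO and 12.8 and 4.01 in KI. Ifitm1 had 0.211 and 2.02 in WT, 33.3 in KO and 3.63 and 0.952 in KI.

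Ccl1, a chemokine that binds CCR8, had 1.29 and 2.102 in WT, 21.3 in KO and 6.11 and 5.51 in KI, at a locus that the files merge with its neighbours. Lgals7, a galectin, had 1.62 and 0.755 in WT, 30.3 in KO and 4.24 and 4.31 in KI. Lag3, a coinhibitory receptor that binds MHC class II, had 13.8 and 13.1 in WT, 60.1 in KO and 25.7 and 23.4 in KI. In each of these KO was highest and the deposited bounds of Ccl1 and Lgals7 overlapped between the classes.

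Neb and Itgae were instead highest in KI replicate 1. Neb, the gene of the muscle protein nebulin, had 6.60 and 5.15 in WT, 24.2 in KO and 51.2 and 16.0 in KI. Itgae, the CD103 integrin that binds E-cadherin, had 30.1 and 24.9 in WT, 46.3 in KO and 102 and 52.8 in KI. With Itgb1 and Itga2 it made 3 of 12 compared integrins higher, against 7.31% of all rows. Itgb1 had 122 and 97.6 in WT, 197 in KO and 159 and 233 in KI. Itga2 had 0.667 and 0.410 in WT, 0.986 in KO and 1.16 and 1.34 in KI. It reached the minimum FPKM only in mutant libraries, so the filter itself favours its being higher. With a mean scaled FPKM of 1 or more, 2 of 10 integrins were higher. Under the deposited bounds 2 higher integrins and 1 lower stayed apart. Itgal, the LFA-1 chain, was lower with 142 and 113 in WT and 90.3 to 96.97 in the mutants. Lilrb4, an inhibitory receptor with a near-identical paralog, had 2.55 and 1.93 in WT, 10.3 in KO and 13.7 and 6.73 in KI. The remaining 6 of the 15 genes with the widest gaps were at low levels in WT. Tm4sf5, a tetraspanin-like membrane protein, had 1.92 and 0.761 in WT against 6.54 to 7.87 in the mutants. Itga7, a laminin-binding integrin subunit, had 0.914 and 1.36 against 4.22 to 5.19. Scin, an actin-severing protein, Smpdl3b, a membrane phosphodiesterase, Car5b, a mitochondrial carbonic anhydrase, and 1700057K13Rik lay between 0.0426 and 0.646 in WT and between 1.92 and 7.0 in the mutants. These reached the minimum FPKM only in mutant libraries.

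Below WT, Cd86 (ENSMUSG00000022901, chr16:36603869-36666081, minus strand), a ligand of CD28 and CTLA-4, had the widest gap. It had 11.1 and 9.63 scaled FPKM in WT, 1.72 in KO and 2.67 and 2.46 in KI. The groups lay far apart, and the deposited bounds did not overlap. The mean of 2.28 ± 0.500 (SD, n = 3) was 4.54-fold lower than that of WT, 10.4 ± 1.04 (SD, n = 2), a difference of -1.80 (SE 0.253, adjusted p = 0.601 in limma). Klrg1 (chr6:122270596-122282882, minus strand), a cadherin-binding inhibitory receptor of terminal effector Treg cells, had 21.3 and 37.3 in WT, 4.98 in KO and 0.699 and 7.16 in KI. Its difference was -2.74 (SE 0.673), and KI replicate 1 was far below the other mutant libraries.

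Dtx1, an E3 ligase of the Notch pathway, was lower to a similar level in all mutants. It had 51.0 and 65.7 in WT, 22.7 in KO and 20.6 and 22.6 in KI, a difference of -1.36 (SE 0.212, adjusted p = 0.912 in limma). The other genes of the Notch list did not share this pattern, with 2 of 14 higher (Rbpj and Nrarp) and 2 lower (Dtx1 and Maml2). Actn1, the actin-bundling alpha-actinin, had 38.8 and 47.6 in WT, 14.3 in KO and 14.1 and 19.8 in KI. Sdc4, a heparan sulfate proteoglycan, had 4.0 and 4.22 in WT and 0.507 to 1.18 in the mutants. Capn3, a calpain protease, had 12.2 and 15.4 in WT and 2.84 to 5.95 in the mutants. Rec8, a meiotic cohesin subunit, and Rnase4, a secreted ribonuclease, had 1.85 to 5.94 in WT and 0.149 to 2.13 in the mutants. Gm11007, Gm3739 and Gm3636 also lay lower, and they belong to repeated gene families that can share reads.

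Receptors of cell homing were among the lower genes. Ccr9, the receptor for the gut and thymus chemokine CCL25, had 8.17 and 7.22 in WT, 2.58 in KO and 0.596 and 1.10 in KI. Ccr6, the CCL20 receptor, had 14.0 and 8.64 in WT, 3.27 in KO and 3.52 and 3.58 in KI. Gpr15, which directs Treg cells to the large intestine, had 6.83 and 8.66 in WT, 3.10 in KO and 2.08 and 3.69 in KI. With Ccr10 these made 4 of 18 compared homing receptors lower (22.2%, against 7.45% of all rows). Higher was 1, Ccr2 (5.56%, against 7.31%), with 12.9 and 10.5 in WT, 21.6 in KO and 16.6 and 28.3 in KI. The median difference of the list was -0.01, as over all rows. Ccr9 and Ccr6 are also made by plasmacytoid dendritic cells and by B cells. B cell markers were lower in the mutants, as given further on. Plasmacytoid dendritic cell markers, of which Ccr9 is itself 1, summed to 46.8 in KO against 45.4 in WT at 21 days. The part of these cells was not tested.

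**Figure D2:**
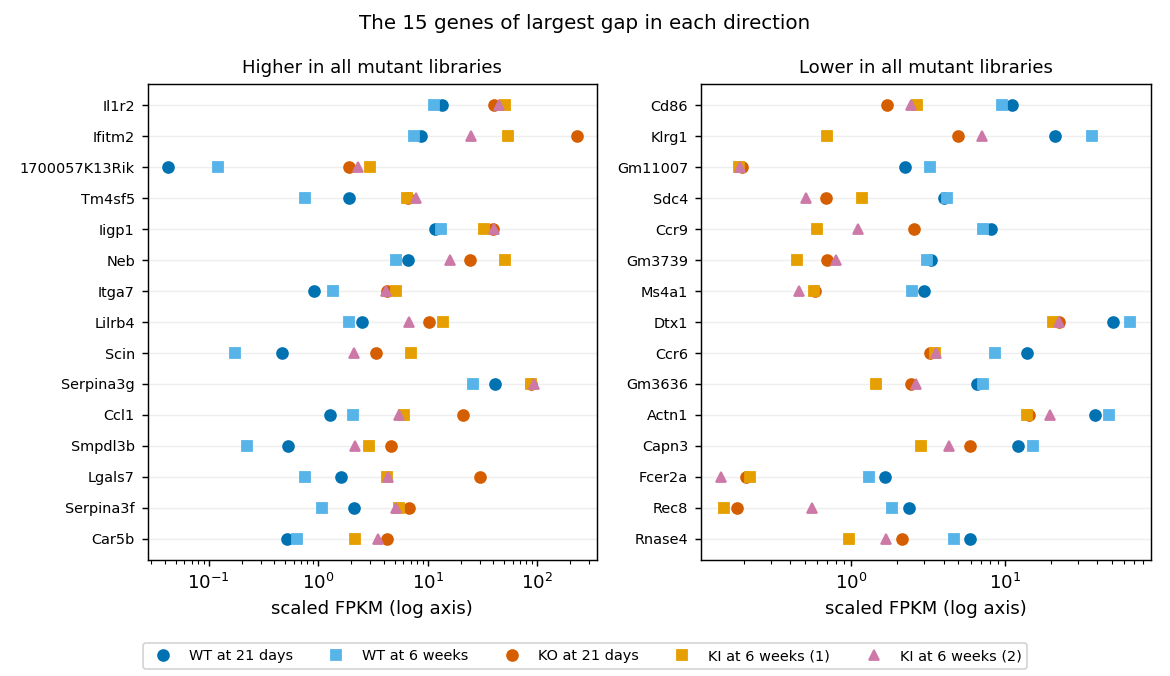
Scaled FPKM (log axis) of the 15 genes with the widest gap above WT (left) and below WT (right), 1 marker per library and no error bars. Blue markers are the 2 WT libraries and orange, yellow and purple ones the 3 mutant libraries. In Ifitm2 and Lgals7 the KO library (orange circle) stands far above the KI libraries, and in Cd86 and Dtx1 the 3 mutant libraries lie close together.

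Among the interferon genes without overlap, those of the type I interferon list lay lower in the mutants and those of the interferon-gamma list higher. In each list 10 genes overlapped. Ifitm2, a gene of virus restriction that is in neither list, lay higher, as given above. Of 21 compared genes of the type I interferon list, 11 were lower in all mutant libraries and 0 higher, against 7.45% and 7.31% of all rows, and the median difference was -0.65. All 21 differences were below 0, from -1.26 to -0.03, and 8 of the 11 also did not overlap as deposited. Of 16 compared genes of the interferon-gamma list, 6 were higher in all mutant libraries and 0 lower, with a median of 0.56, and 5 of the 6 held as deposited.

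Among the type I genes, Ifit1, which binds viral RNA that lacks a host cap, had 7.42 and 12.0 scaled FPKM in WT, 2.62 in KO and 2.26 and 6.09 in KI (difference -1.26, SE 0.408). Oas1a, a sensor of double-stranded RNA, had 5.79 and 5.17 in WT, 1.51 in KO and 2.11 and 3.17 in KI. Oas2, of the same family, had 2.33 and 4.97 in WT, 0.912 in KO and 0.813 and 1.25 in KI. Every mutant library was below both WT libraries in these genes, and KI replicate 2 lay nearest to WT in all 3. Rsad2, the antiviral enzyme viperin, had 1.82 and 3.45 in WT and 0.657 to 0.986 in the mutants. Isg15, a ubiquitin-like modifier, was nearly level in WT with 20.9 and 20.8, and had 14.1 in KO and 12.8 and 18.0 in KI. Irf7, the factor that amplifies the response, overlapped with 25.6 and 49.3 in WT, 28.3 in KO and 19.1 and 18.7 in KI. Within the higher-precision set the list's median was -0.49 and within the lower-precision set -0.78, and without WT at 6 weeks it was -0.44.

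Among the interferon-gamma genes, the guanylate-binding proteins, GTPases that attack pathogen vacuoles, were higher. Gbp4 had 25.5 and 27.7 in WT, 43.4 in KO and 44.9 and 43.7 in KI (difference 0.71, SE 0.189). Gbp2 had 35.6 and 29.4 in WT, 73.0 in KO and 39.7 and 50.9 in KI. Gbp3 had 20.7 and 14.2 in WT, 23.8 in KO and 32.4 and 37.0 in KI. Gbp5 had 13.7 and 11.1 in WT against 14.9 to 26.4 in the mutants, while Gbp6 (16.4 to 18.4 in all libraries) and Gbp7 overlapped. These genes form clusters of near copies, so their values are uncertain where reads are shared. Socs1, the feedback inhibitor of interferon signalling, had 21.1 and 30.0 in WT, 42.0 in KO and 46.7 and 33.6 in KI. Cxcl10, a chemokine induced by interferon-gamma, overlapped widely, with 21.4 and 6.99 in WT, 7.81 in KO and 44.5 and 20.9 in KI. The list's median was 0.47 within the higher-precision set and 0.30 within the lower-precision set.

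Promoters are shown for 3 type I genes that lay lower and 3 interferon-gamma genes that lay higher in every mutant, because both lists are known for 1 shared element. The core of the interferon-stimulated response element, GAAANNGAAA, was searched on both strands in the 250 bases before each RefSeq start (build GRCm38.p6), and matches may overlap each other. It was present in 2.98% of all 32851 promoters and in 287 of 8509 (3.37%) compared protein-coding genes with an entry. In the type I list 8 of 15 genes with an entry held it, and 6 of the 7 with an entry that were lower in the mutants. In the interferon-gamma list 9 of 11 held it, and all 4 with an entry that were higher. The windows are chr4:156200819-156201068 (minus strand) for Isg15, chr19:34640639-34640888 and chr19:34583279-34583528 (plus strand) for Ifit1 and Ifit3, and chr3:142620413-142620662, chr3:142559794-142560043 and chr3:142496684-142496933 (plus strand) for Gbp2, Gbp3 and Gbp5. Gbp3 has 2 starts in RefSeq, and that with more matches is shown. Capitals mark the matches, which overlap in Isg15 and Gbp3.
Isg15: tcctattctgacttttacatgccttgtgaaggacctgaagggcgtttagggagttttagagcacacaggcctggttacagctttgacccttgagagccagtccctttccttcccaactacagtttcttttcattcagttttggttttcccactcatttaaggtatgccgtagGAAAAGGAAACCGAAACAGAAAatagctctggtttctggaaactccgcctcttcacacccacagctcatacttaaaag
Ifit1: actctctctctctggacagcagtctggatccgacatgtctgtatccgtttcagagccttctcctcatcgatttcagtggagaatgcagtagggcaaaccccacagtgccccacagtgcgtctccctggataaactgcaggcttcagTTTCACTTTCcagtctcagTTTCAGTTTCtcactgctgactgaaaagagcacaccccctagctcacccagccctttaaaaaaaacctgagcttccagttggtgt
Ifit3: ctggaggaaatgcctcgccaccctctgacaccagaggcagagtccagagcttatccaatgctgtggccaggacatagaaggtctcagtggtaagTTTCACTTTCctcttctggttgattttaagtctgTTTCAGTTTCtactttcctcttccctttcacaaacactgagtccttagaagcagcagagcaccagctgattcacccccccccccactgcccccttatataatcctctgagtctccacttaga
Gbp2: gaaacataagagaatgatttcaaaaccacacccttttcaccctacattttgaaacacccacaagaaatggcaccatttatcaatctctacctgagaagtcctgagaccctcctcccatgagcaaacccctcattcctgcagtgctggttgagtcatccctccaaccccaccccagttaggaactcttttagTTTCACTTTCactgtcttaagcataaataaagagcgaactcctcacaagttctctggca
Gbp3: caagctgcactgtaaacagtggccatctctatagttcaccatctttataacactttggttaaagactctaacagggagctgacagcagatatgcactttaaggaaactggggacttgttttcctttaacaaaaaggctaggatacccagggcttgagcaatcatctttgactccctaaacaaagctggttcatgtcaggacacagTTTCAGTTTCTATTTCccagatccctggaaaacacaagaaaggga
Gbp5: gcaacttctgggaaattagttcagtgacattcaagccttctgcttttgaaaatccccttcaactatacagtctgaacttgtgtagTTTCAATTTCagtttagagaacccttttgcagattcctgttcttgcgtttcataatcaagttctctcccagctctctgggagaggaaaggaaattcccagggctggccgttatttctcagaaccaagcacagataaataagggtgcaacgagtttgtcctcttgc
A match is a description of these letters and not a binding site. The same letters stand in promoters of genes that lay lower in every mutant (Isg15, Ifit1 and Ifit3) and of genes that lay higher in every mutant (Gbp2, Gbp3 and Gbp5).

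**Figure D3:**
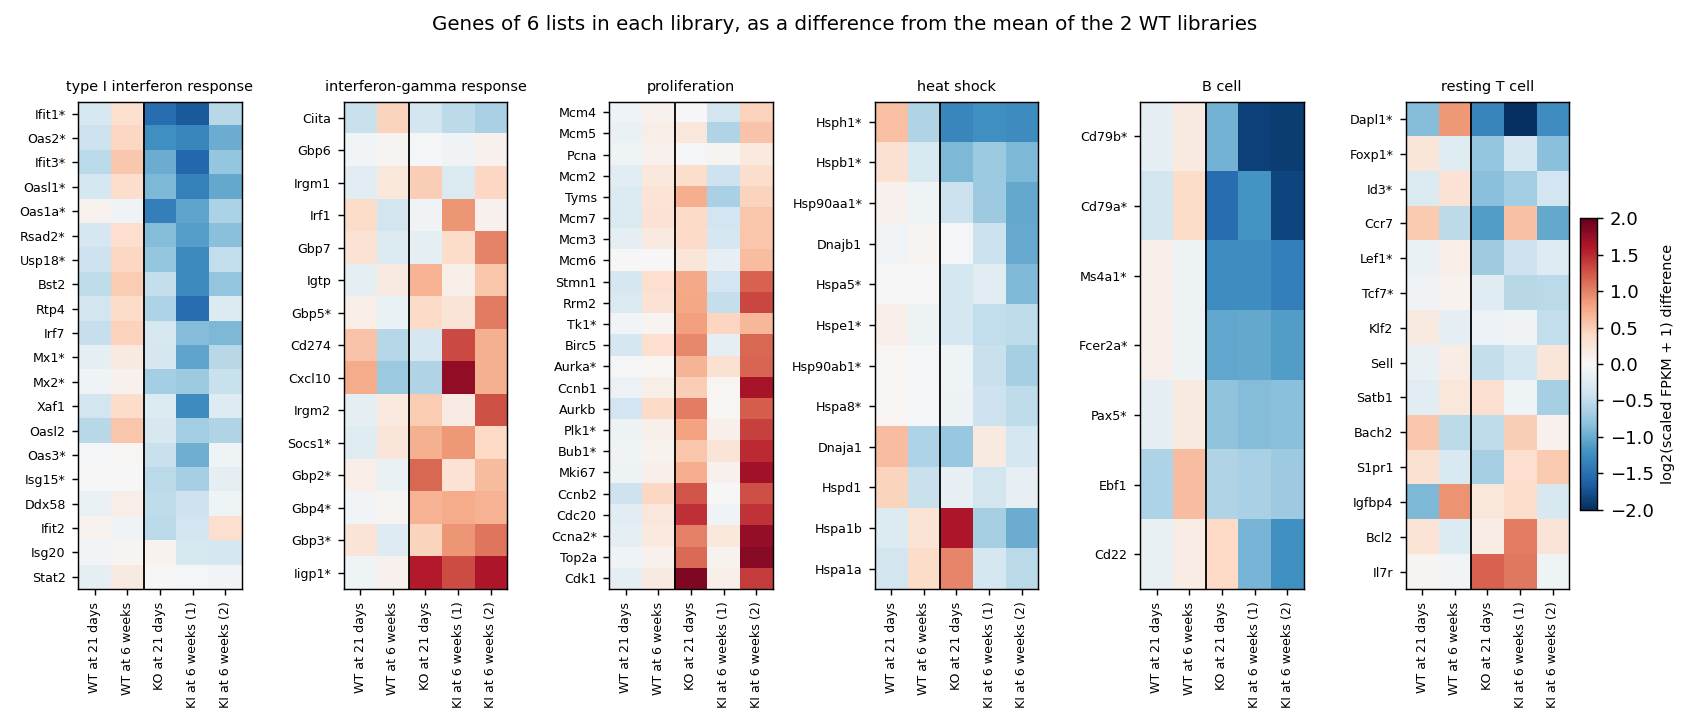
Each cell is a gene's log2(scaled FPKM + 1) in 1 library minus the mean of the 2 WT libraries, with red above and blue below, for genes of 6 lists and the 5 libraries in columns (colours end at 2 and -2). Stars mark genes without overlap, and the black line separates WT from mutant libraries. The type I interferon panel is blue in most mutant cells, with 11 genes starred, and in the proliferation panel the KI replicate 1 column is paler than the KO and KI replicate 2 columns.

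Of 30 compared NF-kB target genes, 7 were higher (23.3%, against 7.31% of all rows) and 1 lower (3.33%, against 7.45%). The other 22 overlapped, 13 of the 30 differences were below 0, and the median was 0.07. Higher were Icam1, an adhesion molecule, with 16.7 and 15.6 scaled FPKM in WT, 19.9 in KO and 34.0 and 21.6 in KI, and Tnfrsf4, the costimulatory receptor OX40, with 147 and 121 in WT, 156 in KO and 218 and 184 in KI. Tnip3, which restrains NF-kB together with A20, had 0.192 and 0.196 in WT, 1.54 in KO and 0.642 and 0.851 in KI. It reached the minimum FPKM only in KO. The other 4 were Tnfrsf18, Traf1, Relb and Nfkb2, and of the 7, 4 did not overlap as deposited. Under the deposited bounds 1 higher and 1 lower gene of the list stayed apart. With a mean scaled FPKM of 1 or more, 6 of 29 were higher. The lower gene was Bcl2l1, which codes for the survival protein BCL-XL, with 19.2 and 18.1 in WT, 9.53 in KO and 5.93 and 12.3 in KI. Its difference of -0.99 (SE 0.312) was the largest of the list in size.

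Some early targets of the pathway differed widely between libraries of the same class. Tnfaip3, the gene of A20 and a MALT1 substrate, had 795 and 218 in WT, 190 in KO and 864 and 228 in KI. Nfkbia, the gene of the inhibitor IkB-alpha, had 479 and 320 in WT, 290 in KO and 604 and 170 in KI. Rel, the c-Rel subunit that Treg development depends on, had 46.5 and 7.79 in WT, 4.64 in KO and 40.5 and 16.2 in KI. In these 3 genes WT at 21 days and KI replicate 1 were highest, and the groups overlapped. Of 14 subunits and inhibitors, 2 were higher, Nfkb2 with 30.4 and 22.965 in WT, 30.7 in KO and 41.9 and 38.8 in KI, and Relb with 21.0 and 21.9 in WT against 22.2 to 31.2 in the mutants. In Nfkb2 the KO library lay barely above WT at 21 days, and neither gene kept its separation under the deposited bounds. Of 13 known MALT1 protease substrates, N4bp1, a ribonuclease, and Relb were higher, Limd1, a scaffold protein, was lower, and 10 overlapped, with a median of 0.08. Among 12 compared transcripts that Regnase-1 and Roquin degrade, 1 was higher, Tnfrsf4, and 0 lower.

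The Treg identity genes mostly overlapped. Of 17, 4 were higher (Itgae, Socs2, Tnfrsf4 and Tnfrsf18), 2 lower (Foxo1 and Cd5) and 11 overlapped, with a median difference of 0.16. This was 23.5% higher and 11.8% lower, against 7.31% and 7.45% of all rows. Foxo1, a transcription factor of quiescence and of Treg function, had 81.7 and 65.3 scaled FPKM in WT, 34.3 in KO and 54.6 and 56.6 in KI. Ctla4, the inhibitory receptor that removes CD80 and CD86 from other cells, had 396 and 148 in WT, 118 in KO and 412 and 246 in KI. Il2ra, the high-affinity interleukin 2 receptor chain, had 93.4 and 74.2 in WT, 76.7 in KO and 112 and 176 in KI. KO lay below WT at 21 days in Foxp3, Ctla4 and Il2ra, and both KI libraries lay above WT at 6 weeks, so these genes had opposite signs at the 2 ages. The list's median was -0.28 for KO against WT at 21 days and 0.72 for KI against WT at 6 weeks, and the difference between these was not tested.

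In the effector Treg list 2 of 21 genes were higher (Gzmb and Prdm1) and 2 lower, Klrg1 among them. This was 9.52% in each direction, near the 7.31% and 7.45% of all rows. Gzmb, the protease granzyme B, had 7.13 and 9.93 scaled FPKM in WT, 58.7 in KO and 18.2 and 15.5 in KI (difference 1.5, SE 0.560). Prdm1, the gene of the effector factor Blimp-1, had 4.70 and 3.53 in WT, 7.04 in KO and 7.11 and 10.7 in KI. Il10, an anti-inflammatory cytokine, overlapped, with 32.8 and 8.11 in WT, 17.5 in KO and 13.3 and 9.89 in KI. Icos, a costimulatory receptor, lay between 82.4 and 105 in all libraries. Among 14 coinhibitory and costimulatory receptors, Lag3 and Btla were higher and Cd86, Cd226 and Cd96 lower. Cd226, an activating receptor, had 20.1 and 11.8 in WT, 7.46 in KO and 6.28 and 8.93 in KI. Cd96, which competes for the same ligand, had 53.4 and 59.1 in WT, 35.6 in KO and 32.3 and 41.6 in KI.

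Cytokine genes of the Th2 list were highest in KO. Il4 had 0.675 and 0.712 scaled FPKM in WT, 14.5 in KO and 2.67 and 2.203 in KI. Il5 had 0.0247 in WT at 21 days, was listed at 0 in the 6-week WT library, and had 0.926 in KO and 0.0857 and 0.0745 in KI. These made 2 of 9 compared Th2 genes higher. Both reached the minimum FPKM only in mutant libraries, Il5 only in KO, so the filter itself favours their being higher. With a mean scaled FPKM of 1 or more, 1 of 7 was higher. Stat6, which transduces the interleukin 4 signal, was lower with 60.6 and 54.6 in WT and 44.4 to 47.1 in the mutants. Of 10 Th1 genes 1 was higher, Il18rap, a subunit of the interleukin 18 receptor, with 6.92 and 4.47 in WT, 13.2 in KO and 11.2 and 7.82 in KI. Tbx21, the Th1 factor T-bet, overlapped with 2.37 and 3.29 in WT, 6.34 in KO and 2.72 and 3.09 in KI. In the Th17 list 2 of 6 genes were lower, Ccr6 among them, and in the follicular helper list Bcl6 and Sh2d1a were lower and Btla higher among 9. Of 9 cytotoxic granule genes Gzmb and Nkg7 were higher, and Nkg7 had 19.4 and 29.1 in WT, 73.8 in KO and 33.3 and 36.2 in KI. The summed level of 5 NK cell markers was also highest in KO, at 22.7 against 4.31 and 11.2 in WT. In KI it was 3.18 and 2.47, below both WT libraries, unlike Gzmb and Nkg7. The part of NK cells in these genes was not tested.

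Among 14 compared genes of quiescent T cells, 5 were lower (Dapl1, Foxp1, Id3, Lef1 and Tcf7) and 0 higher, with a median of -0.21. This was 35.7% lower, against 7.45% of all rows, but as deposited only 2 of these 5 did not overlap. Tcf7, the TCF-1 factor of naive and memory T cells, had 200 and 219 scaled FPKM in WT, 176 in KO and 142 and 144 in KI. Lef1, its relative, had 56.8 and 68.8 in WT, 38.0 in KO and 46.8 and 52.0 in KI. Foxp1, a factor of naive T cell quiescence, had 72.3 and 51.4 in WT, 35.2 in KO and 47.9 and 33.5 in KI. Il7r, the interleukin 7 receptor of resting T cells, was on the other side in 2 mutants and overlapped, with 58.8 and 54.6 in WT, 130 in KO and 119 and 53.2 in KI.

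All 23 compared proliferation genes had a mean above WT, with differences from 0.03 to 1.12 and a median of 0.64, but this rested on KO and KI replicate 2. Top2a, the topoisomerase of dividing cells, had 22.6 and 25.3 scaled FPKM in WT, 53.4 in KO and 25.05 and 86.8 in KI. Mki67, the proliferation antigen Ki-67, had 13.7 and 16.1 in WT, 25.3 in KO and 15.9 and 49.9 in KI. KI replicate 1 was not above WT at 6 weeks in either gene. Without overlap were 5 genes (Tk1, Aurka, Bub1, Ccna2 and Plk1), and 0 as deposited. The 5 genes made 21.7% of the list, against 7.31% of all rows. Leaving out KI replicate 1, which can only raise that count, gave 21 of 23 and a median of 1.02. Over all 12678 rows the same step raised the higher ones from 927 to 1671. Among 17 genes of the G1 checkpoint, Cdk6, Cdkn2a and Cdkn2c were higher and Ccnd1 lower. This was 17.6% higher and 5.88% lower, against 7.31% and 7.45% of all rows. Cdkn2a had 0.360 and 0.367 in WT, 3.45 in KO and 1.15 and 0.754 in KI. It reached the minimum FPKM only in mutant libraries, so the filter itself favours its being higher. With a minimum FPKM of 5, 2 of 14 were higher and 0 lower, and the deposited bounds left 0 of 17. Cdk6, a kinase that drives entry into S phase, had 7.85 and 3.52 in WT, 8.45 in KO and 25.6 and 24.1 in KI. Cdkn2c, an inhibitor of CDK4 and CDK6, had 8.18 and 7.24 in WT, 17.1 in KO and 10.1 and 18.4 in KI.

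Of 12 compared heat shock genes, 7 were lower in all mutants (58.3%, against 7.45% of all rows) and 0 higher. The median was -0.42, and 4 of the 7 held as deposited. Hsph1, a large chaperone of the HSP110 family, had 52.6 and 22.2 scaled FPKM in WT, 13.3 in KO and 14.1 and 13.8 in KI. Hsp90aa1, the inducible HSP90 chaperone, had 185 and 164 in WT, 128 in KO and 105 and 84.7 in KI. Hspa8, the constitutive HSP70, had 682 and 651 in WT, 622 in KO and 501 and 468 in KI. The inducible HSP70 genes went the other way in KO. Hspa1b had 1.11 and 2.06 in WT, 6.81 in KO and 0.602 and 0.276 in KI, and it overlapped. Within the lower-precision set the list's median was -0.12, against -0.63 within the higher-precision set.

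Of the marker lists of other cell types, that of B cells lay lower in the mutants at low levels. Of 8 compared B cell markers 6 were lower in all mutant libraries and 0 higher (Ms4a1, Fcer2a, Cd79a, Cd79b and Pax5 among them), with a median of -1.01 and with all 6 holding as deposited. Ms4a1, the gene of CD20, had 2.996 and 2.49 scaled FPKM in WT, 0.585 in KO and 0.571 and 0.454 in KI. It reached the minimum FPKM only in WT libraries, so the filter itself favours its being lower. With a mean scaled FPKM of 1 or more, 3 of 4 markers were lower. Cd79b, part of the B cell receptor, had 8.93 and 11.6 in WT, 4.79 in KO and 2.06 and 1.99 in KI. The 8 markers summed to 19.5 and 26.7 in WT, 9.18 in KO and 4.61 and 3.29 in KI, and none was at 0 in any library. Cd86, Ccr6 and Fcer2a are genes of B cells as well, and the part of B cells in their difference was not tested. Within the higher-precision set the B cell median was -1.04 and within the lower-precision set -1.07.

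Markers of plasmacytoid dendritic cells, myeloid cells and MHC class II were highest in WT at 6 weeks. The 9 markers of plasmacytoid dendritic cells summed to 45.4 and 153 scaled FPKM in WT, 46.8 in KO and 21.7 and 28.6 in KI, and 2 of them (Ccr9 and Tcf4) did not overlap. The 10 myeloid markers summed to 153 and 261 in WT, 138 in KO and 169 and 132 in KI. MHC class II genes summed to 94.8 and 362 in WT, 234 in KO and 142 and 90.8 in KI, and 0 of 6 separated. Of the type I interferon genes, Ifit1, Oas2 and Irf7 were also highest in WT at 6 weeks, but Isg15 and Oas1a were not. In KO the MHC class II sum lay above WT at 21 days, the plasmacytoid sum slightly above it and the myeloid sum below it. List medians of KO minus WT at 21 days, another measure, were 0.48 for plasmacytoid, 0.99 for MHC class II and 0.18 for myeloid markers. The type I list's median for that contrast was -0.39. The part of these cells in that list was not tested. Of 11 pan T cell genes 5 were lower (Cd3d, Cd247, Trac, Trbc1 and Cd5) with a median of -0.34, and 0 of them held as deposited. Trac, the T cell receptor alpha constant region, had 777 and 941 in WT, 703 in KO and 467 and 622 in KI.

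**Figure D4:**
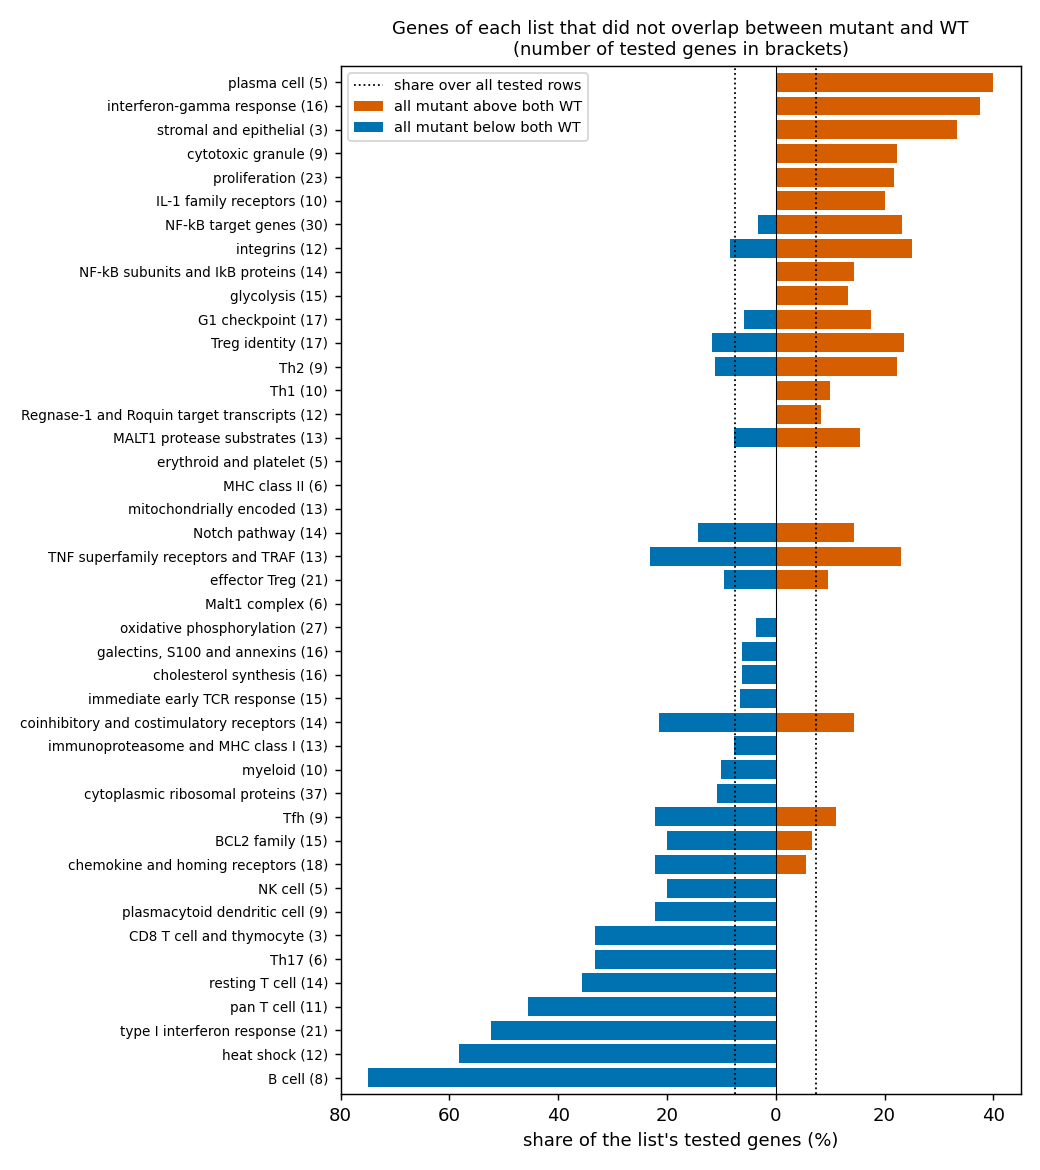
Share of the compared genes of each list that lay above both WT libraries in all 3 mutant libraries (orange, to the right) or below both (blue, to the left), in percent, with the number of compared genes in brackets. Dotted lines mark the shares over all rows, 7.31% higher and 7.45% lower. B cell, heat shock and type I interferon lists reach furthest to the left, with 6 of 8, 7 of 12 and 11 of 21 genes, and the bars of lists with 3 to 6 genes rest on 1 or 2 genes each.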

How the data were processed

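Total RNA of sorted CD4+YFP+ Treg cells was sequenced in 5 libraries. Per the submitters' processing notes the authors used CASAVA, HISAT2 2.1.0 and Cufflinks 2.2.1 on GRCm38, with no settings or order given, and the sources used here name no strand setting or annotation. The deposited values are gene-level FPKM with lower and upper bounds and a status, per the file headers, in 38130 rows with 38109 gene IDs. Arhgef6 and Nlrc5 lacked the status OK in 1 library each. FPKM hold no counts, so depth is unknown, and precision was read from the bounds, which cover only error inside 1 library.

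Each library's FPKM were rescaled with a median-of-ratios factor taken over 9874 genes at 1 or more in all 5 libraries (0.876 for WT at 21 days, 1.15 for WT at 6 weeks, 1.145 for KO, and 0.868 and 1.013 for KI). Rows with a deposited FPKM of 1 or more in any library were compared, 12678 in all, of which 10663 are protein coding in GENCODE M21 (36282 rows matched by ID). The test was limma 3.58.1 in R 4.3.3 with trend, two-sided, on log2(scaled FPKM + 1), with 3 residual degrees of freedom and Benjamini-Hochberg adjustment at 0.05. An exact permutation test of 1 gene has 10 arrangements and cannot go below p = 0.2, so none is given. On simulated data of 12678 genes with 50 changed genes per fold size, the step recovered 68% of 2-fold changes and 100% of 4-, 8- and 16-fold changes. It made 4 false calls among 188, and 0 calls with no gene changed. The simulation gave genes of equal mean the same spread, shifted all mutant libraries alike and changed only genes of higher mean. Real genes can spread more, as Ifitm2 did, so these shares do not show which real fold changes the fit would call.

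The 43 gene lists (538 genes, 537 of them in the files, Irf8 not analysed here) and the comparison itself were chosen with earlier results of these data known. Named genes are the 15 protein-coding genes of widest gap in each direction, with status OK and no overlap in scaled and in deposited FPKM, among 432 higher and 357 lower ones. To these were added Malt1 and up to 4 genes of each list without overlap, or the 3 of highest mean. Further list members are named by role. Some list members are counted but not reported here by name. The interferon element was searched after the lists' values were seen, in the 250 bases before RefSeq starts of GRCm38.p6, chromosome 18 left out. Alternatives were other scaling, filters, pseudocounts, gene types, covariates, library subsets and the deposited bounds.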

Additional observations from a re-analysis of the deposited data

Results flagged for a closer look

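Pooling the ages joins 2 contrasts that differed in sign for 23 of 43 gene lists. In these lists the median difference of KO from WT at 21 days lay on one side of 0 and the median differences of both KI libraries from WT at 6 weeks on the other. The difference between the contrasts was not tested. Each contrast also runs from 1 precision set to the other, so age, allele and precision cannot be told apart. The values below are KI minus WT at 6 weeks less KO minus WT at 21 days, as list medians on the log2(scaled FPKM + 1) scale.

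Of the lists near MALT1, those of its substrates, of NF-kB and of Regnase-1 and Roquin transcripts lay lower in KO and higher in KI. The Malt1 complex list did not, with medians of -0.21 in KO and 0.30 and -0.05 in KI. For the substrates the KI medians were 0.58 and 0.06. The difference between the contrasts was 1.08 for MALT1 protease substrates, 0.50 for NF-kB subunits and inhibitors, 0.62 for NF-kB target genes and 0.97 for transcripts of Regnase-1 and Roquin. It was 1.004 for Treg identity, 0.81 for effector Treg genes, 1.02 for integrins and 0.57 for the Notch pathway. Mitochondrially encoded genes had the largest positive value, 2.34, from -1.65 in KO and 0.69 in KI.

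Several lists of other cell types went the other way, but B cell markers and erythroid and platelet markers lay lower in both contrasts. The value was -3.40 for plasmacytoid dendritic cell markers, -3.14 for MHC class II genes, -1.90 for NK cell markers, -1.76 for myeloid markers, -1.21 for plasma cell markers and -0.97 for CD8 T cell and thymocyte markers. Pan T cell genes had -0.75 and cytotoxic granule genes -1.33. Smaller negative values were found for galectins, S100 proteins and annexins (-0.87), the immunoproteasome and MHC class I (-0.72), oxidative phosphorylation (-0.71), the BCL2 family (-0.47), cytoplasmic ribosomal proteins (-0.47) and cholesterol synthesis (-0.36).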

How the results depend on the processing

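The limma fit called 0 rows under every alternative run except without WT at 6 weeks, so leaving out 1 library gave 0 to 10 calls. The 10 calls were short RNAs and pseudogenes, all lower, such as Snora75, seen in WT at 21 days and listed at 0 in the other libraries. The numbers in the titles pair WT and KI libraries of different ages, and a fit with them as a replicate block, without KO, also called 0 rows (lowest adjusted p 0.124 in limma). Age, precision set and equal group weights as alternatives gave 0 calls too. Whether the numbers pair samples could not be checked, because each WT group has 1 library.

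The count of 1872 rows without overlap (927 higher, 945 lower) followed the settings. FPKM as deposited gave 783 higher and 600 lower. A minimum of 5 gave 1198 rows (602 and 596), and no minimum gave 2841, with 1516 lower. With the deposited bounds kept apart as well, 229 remained (105 and 124). Leaving out 1 library gave 3315 to 5710 rows, 1671 to 2554 higher and 1625 to 3156 lower, since fewer libraries set fewer conditions. For the same reason the 21-day libraries alone gave 12583 (6548 and 6035) and the 6-week libraries 9421 (4460 and 4961). The higher-precision set gave 7299 (3611 and 3688) and the lower-precision set 12526 (6073 and 6453).

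Of 115 named genes without overlap, 80 kept it as deposited, 109 with upper-quartile scaling and 53 under the bounds. The bounds left 4 of 11 type I interferon genes, 2 of 6 interferon-gamma genes, 3 of 7 heat shock genes, 5 of 6 B cell genes and 0 of 5 proliferation genes. Of 43 list medians, 0 changed sign with either other scaling, 14 did in the 21-day libraries alone and 13 in the 6-week libraries alone. In the higher-precision set 7 did, and in the lower-precision set 8. Leaving out 1 library changed the sign of 14 (WT at 21 days), 9 (WT at 6 weeks), 10 (KO), 5 (KI replicate 1) and 6 (KI replicate 2). Signs of the type I interferon, interferon-gamma, heat shock, B cell, proliferation and resting T cell medians held under every alternative run.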

Other observations

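Several lists of metabolism and survival, not described above, lay close to WT in the pooled comparison. Of 15 glycolysis genes 13 had a difference above 0, with a median of 0.21, and 2 did not overlap, Eno1, the enzyme enolase, and Slc2a3, a glucose transporter. Slc2a3 had 18.7 and 14.0 scaled FPKM in WT, 18.8 in KO and 29.2 and 26.0 in KI, so KO lay next to WT at 21 days, and Eno1 overlapped as deposited. Of 27 nuclear genes of oxidative phosphorylation 20 lay below 0, with a median of -0.11, and 1, Sdha, did not overlap. Of 37 ribosomal protein genes 34 lay below 0, with a median of -0.18, and 4 did not overlap, of which 0 held as deposited. Among 15 genes of the BCL2 family, Bcl2l1, Mcl1 and Bmf were lower and Bcl2l2 higher. Mcl1, a survival protein of T cells, had 163 and 188 in WT, 149 in KO and 158 and 152 in KI, and it overlapped as deposited.

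Of 15 immediate early genes of T cell receptor signalling 13 lay below 0, with a median of -0.44, but 1 did not overlap. Egr1, an early growth response factor, had 43.5 and 44.0 in WT, 36.0 in KO and 29.6 and 25.3 in KI, and it overlapped as deposited. Among rows of other gene types than protein coding, 83 of 2015 were higher (4.12%) and 133 lower (6.6%). The small nucleolar RNA Snora23 had 6.06 and 6.21 in WT and was listed at 0 in all 3 mutant libraries, with an adjusted p of 0.295 in limma.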
